A study of Homo sapiens with 13 samples.

Results

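SLAMF7, ZNF114, HKDC1, CDH4, SEMA7A and TNFSF15 are 6 protein-coding genes whose transcripts were higher than in control cells in both versions of a VIRMA knockout of MDA-MB-231, an established human line of triple-negative breast cancer. They are 6 of the 38616 genes in the authors' expression table, and were picked by symbol because they rose with each guide, so their levels against the control are described without a test. The 9 RNA-seq libraries form groups of 3: cells infected with lentivirus for KIAA1429 (VIRMA) depletion and labelled sg1, the same labelled sg2, and cells with a non-targeting control (NTC). The labels give all 9 the genotype KIAA1429 KO or Control and passage P2, and all were selected as stable lines after infection and kept in high-glucose medium with serum; whether a line is 1 clone or a mixture is not given, and 1 label field calls sg1 a knockdown. Sites of N6-methyladenosine (m6A) were mapped in other samples, 1 pull-down and 1 input library from KIAA1429 KD cells and 1 of each from NTC cells. Nothing in the labels tells whether libraries of one group are separate cultures, and p-values therefore cover the spread between these libraries only.

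VIRMA is the scaffold subunit of the nuclear complex that methylates adenosines in messenger RNA, most often near stop codons and in 3′ untranslated regions, and reader proteins of m6A can shorten the life of a transcript or change its translation. The 6 genes belong to different families. Most act at or beyond the cell surface: SLAMF7 is an immune receptor of natural killer and plasma cells that binds another copy of itself, CDH4 (R-cadherin) joins neighbouring cells through calcium-dependent contacts, SEMA7A is a semaphorin held in the membrane by a lipid anchor and read by integrin beta 1 and plexin C1, and TNFSF15 (TL1A) is a cytokine of the TNF family that signals through the death domain receptor TNFRSF25. HKDC1 is a hexokinase, a family that phosphorylates glucose in the first step of its use. ZNF114 encodes a zinc finger protein of the KRAB class, whose members bind DNA and usually repress genes through the corepressor TRIM28.

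The libraries held 13975173 to 22051705 gene reads, and values are the authors' normalized read counts, gene reads divided by 1 factor per library. VIRMA itself, the target, was at 1437, 1560 and 1613 in sg1, at 1566, 1989.9 and 2170 in sg2 and at 2196, 2122 and 2689 in NTC (mean of both guides minus NTC -0.45 on the log2 scale, limma adjusted p = 0.0818). Most defining markers of the line fitted the label. VIM, CD44, AXL, MSN and CAV1 were abundant, and ESR1, PGR and FOXA1 were below 10 in every library. Of the other markers listed as low, GATA3 was at 15.2 to 34.6 in NTC and at 42.4 in sg2-1. ERBB2 was at 1174 to 1235 in NTC. 2 libraries stood apart from their groups. On the first principal component (53.3% of the variance) sg2-1 was at 29.6, nearer to sg1 (46.1 to 56.8) than to sg2-2 and sg2-3 (-68.5 and -77.2), with NTC at -16.0 to -9.9. In sg1-3, 351 genes reached 100 or more and exceeded every library except sg2-3 at least 8-fold, and 0 of the 6 genes were among them. Results on the 6 genes are therefore also given without sg2-1 or sg1-3.

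Each of the 6 genes was higher in all 6 knockout libraries than in all 3 NTC libraries. This holds for 4.62% of the 15965 genes with a value of at least 10 in at least 3 libraries, and nothing is read from it here, because the rise chose the genes. At an adjusted p below 0.05, 0.113% of tested genes were higher with sg1, 4.19% with sg2 and 0.0877% (14 genes) with both. Others of these 14 were CDA, WWC1, LLGL2, LRP8, LPIN1, ADARB1 and FASN. The set depends on the fit, most of all through sg1. In either direction 0.194% of tested genes passed limma for sg1 against NTC. That share was 0.0% without any single NTC or sg1 library, and 40.7% without sg2-1. Judged by the larger limma adjusted p of both guides, CDH4 (0.0485) and FASN (0.0493) lay just inside the threshold and SAFB2 (0.054) just outside. These values only show which genes lie near the threshold, and that of CDH4 is not read as a test. Comparisons of sg1 and of sg2 with NTC share the NTC libraries, and bulk RNA cannot tell more cells with a transcript from more of it per cell.

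**Figure D1:**
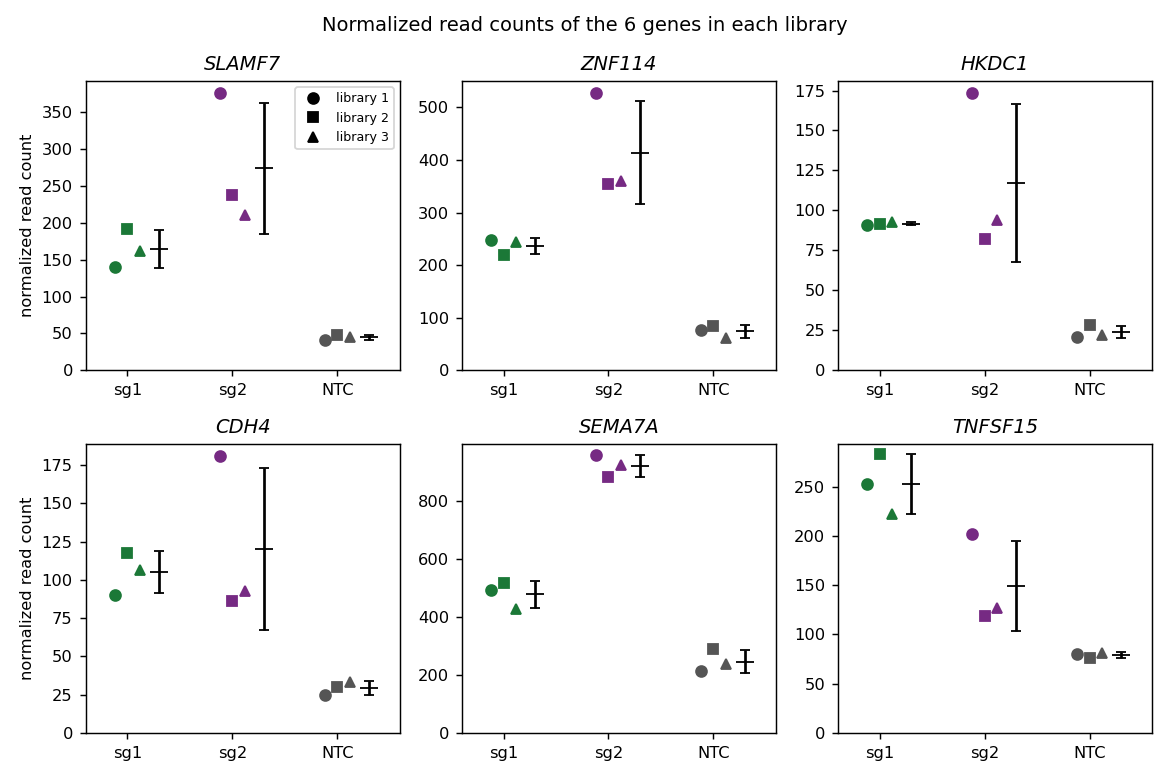
Normalized read count (y axis, linear from 0, a scale per gene) of the 6 genes in the sg1, sg2 and NTC libraries; the shape of a point gives the library number, and bars give the mean and SD of 3 libraries. All knockout points lie above all NTC points, and sg2-1 (circle) is the highest sg2 point in each panel.

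SLAMF7 (ENSG00000026751.16, chr1:160739057-160754821, hg38), the immune receptor, had 139.8, 191 and 162 normalized counts in sg1, 376, 237 and 210.3 in sg2 and 40.8, 47.5 and 45.7 in NTC. NTC libraries were close together, and each sg2 library lay above each sg1 library. The means were 164 ± 25.7 in sg1, 274 ± 88.8 in sg2 and 44.7 ± 3.45 in NTC (SD, n = 3 each), 3.68-fold of NTC with sg1 and 6.14-fold with sg2. Recovered reads were 35 to 425 per library, so SLAMF7 was detected in the control cells and was not switched on from 0.

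ZNF114 (ENSG00000178150.9, chr19:48270081-48287608), the zinc finger gene, had 247, 219.7 and 244 normalized counts in sg1, 527, 355 and 359 in sg2 and 77.0, 85.0 and 60.5 in NTC. The order of the groups was that of SLAMF7, sg2 above sg1 above NTC without overlap. Its means were 237 ± 15.2 in sg1, 414 ± 98.0 in sg2 and 74.1 ± 12.5 in NTC (SD, n = 3 each), 3.20-fold of NTC with sg1 and 5.58-fold with sg2.

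HKDC1 (ENSG00000156510.12, chr10:69220332-69267552), the hexokinase, had 91.1, 91.45 and 92.9 normalized counts in sg1, 173, 82.2 and 94.1 in sg2 and 21.0, 28.3 and 22.2 in NTC. The sg1 libraries were nearly equal, and sg2 overlapped with them because sg2-1 and sg2-3 were above and sg2-2 below all 3. Means were 91.8 ± 0.956 in sg1, 117 ± 49.5 in sg2 and 23.8 ± 3.92 in NTC (SD, n = 3 each), 3.85-fold of NTC with sg1 and 4.89-fold with sg2. The gene had 18 to 196 reads per library, the lowest of the 6, and lies 2.4 kb from its paralog HK1; how reads shared between near-identical genes were counted is not stated in the labels. Promoters, here 250 bases before to 50 after a transcription start, were taken from RefSeq on GRCh38.p14 for the members that have one in the table used, and are shown to set their CpG content and motifs beside the common rise. That of HKDC1 (chr10:69220082-69220381, plus strand) holds 5 CpG pairs, against a median of 14 over 35116 promoters.
HKDC1: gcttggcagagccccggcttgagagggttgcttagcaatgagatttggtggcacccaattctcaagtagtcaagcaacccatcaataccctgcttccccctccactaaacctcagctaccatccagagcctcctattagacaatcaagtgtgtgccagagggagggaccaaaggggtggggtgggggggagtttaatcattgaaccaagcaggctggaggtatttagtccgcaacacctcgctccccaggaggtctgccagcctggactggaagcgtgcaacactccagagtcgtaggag

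CDH4 (ENSG00000179242.15, chr20:61252261-61940617), R-cadherin, had 90.1, 118 and 107 normalized counts in sg1, 181, 86.4 and 92.8 in sg2 and 24.5, 30.3 and 33.3 in NTC. As for HKDC1, sg2-1 was far above the other sg2 libraries, which lay at the level of sg1. The means were 105 ± 13.8 in sg1, 120 ± 53.0 in sg2 and 29.4 ± 4.49 in NTC (SD, n = 3 each), 3.56-fold of NTC with sg1 and 4.09-fold with sg2. The table holds 2 CDH4 starts, both inside the gene span, with 9 and 14 CpG pairs.

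SEMA7A (ENSG00000138623.9, chr15:74409289-74433958, minus strand), the membrane-anchored semaphorin, had 493, 517 and 427.5 normalized counts in sg1, 959, 883 and 926 in sg2 and 212, 289 and 237 in NTC. Here sg2-1 was close to sg2-2 and sg2-3, unlike in the other 5 genes, and the groups were again in the order sg2, sg1, NTC without overlap. Means were 479 ± 46.2 in sg1, 923 ± 38.1 in sg2 and 246 ± 39.3 in NTC (SD, n = 3 each), 1.95-fold of NTC with sg1 and 3.75-fold with sg2. Its outer promoter (chr15:74433909-74434208, minus strand) holds 23 CpG pairs, more than 64.2% of promoters in the table, and a second start 254 bases further in has 45.
SEMA7A: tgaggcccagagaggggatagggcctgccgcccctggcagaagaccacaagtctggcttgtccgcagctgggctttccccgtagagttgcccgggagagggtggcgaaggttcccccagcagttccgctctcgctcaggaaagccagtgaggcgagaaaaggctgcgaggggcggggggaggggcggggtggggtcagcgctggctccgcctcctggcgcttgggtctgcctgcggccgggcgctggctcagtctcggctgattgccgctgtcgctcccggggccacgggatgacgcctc

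TNFSF15 (ENSG00000181634.7, chr9:114784635-114806039, minus strand), the TNF family cytokine, had 253, 283 and 223 normalized counts in sg1, 202, 119 and 127 in sg2 and 80.5, 75.9 and 81.5 in NTC. Here the order was turned, with each sg1 library above each sg2 library, and NTC lay within a narrow range below both. Its means were 253 ± 30.3 in sg1, 149 ± 45.6 in sg2 and 79.3 ± 3.00 in NTC (SD, n = 3 each), 3.19-fold of NTC with sg1 and 1.88-fold with sg2. The start in the table lies 13509 bases inside the gene span (promoter chr9:114792481-114792780, minus strand). It holds 3 CpG pairs and, in capitals, the letters of an AP-1 site (TGANTCA, both strands) 120 bases before the start.
TNFSF15: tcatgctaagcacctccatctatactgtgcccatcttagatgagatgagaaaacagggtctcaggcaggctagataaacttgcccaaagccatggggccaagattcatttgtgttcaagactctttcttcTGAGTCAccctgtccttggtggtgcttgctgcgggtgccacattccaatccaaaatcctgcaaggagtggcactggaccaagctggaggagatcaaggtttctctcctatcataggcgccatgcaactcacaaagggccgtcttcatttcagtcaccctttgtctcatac
The AP-1 letters were not found in the other 5 promoters of the members, and occur in 7.71% of all promoters in the table. The TATA box (TATAAA, in 11.5% of all promoters) and the E-box (CACGTG, in 7.26%) were searched on both strands too and found in none of the 6. SLAMF7 and ZNF114 had no entry.

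In the mean of both guides the log2 fold changes over NTC, on the scale of log2(normalized count + 1), were 2.20 ± 0.20 (SE) for SLAMF7, 2.06 ± 0.17 for ZNF114, 2.04 ± 0.24 for HKDC1, 1.86 ± 0.25 for CDH4, 1.44 ± 0.12 for SEMA7A and 1.26 ± 0.18 for TNFSF15. Neighbours in this order differed by less than their standard errors from SLAMF7 to CDH4. Without sg2-1 and sg1-3 the same values were 2.07, 1.96, 1.88, 1.69, 1.46 and 1.18. Relative to NTC, the 6 genes in single knockout libraries ran from 0.58 (TNFSF15 in sg2-2) to 3.05 (SLAMF7 in sg2-1).

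**Figure D2:**
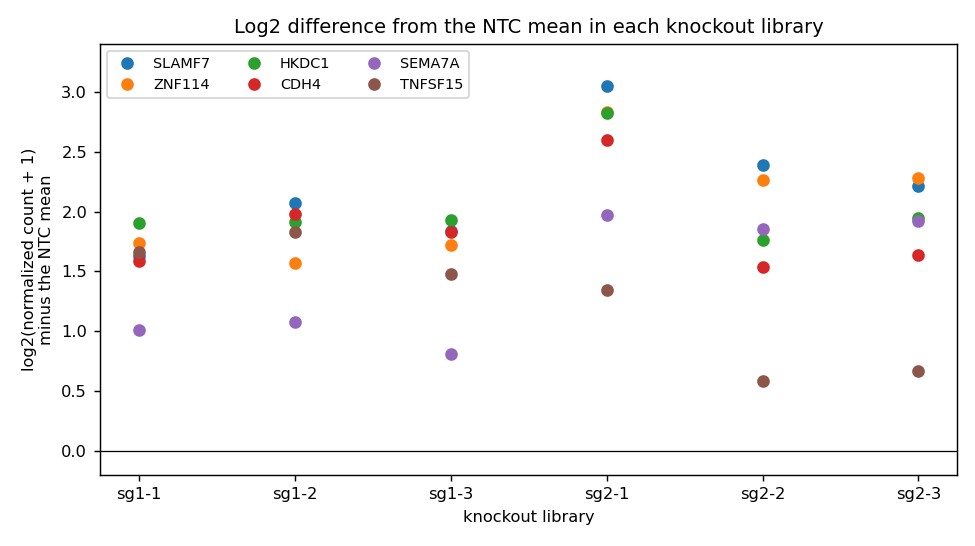
Log2(normalized count + 1) of the 6 genes in each knockout library minus the mean of the 3 NTC libraries (y axis; 0 is the NTC mean), with a colour per gene. All points are above 0; TNFSF15 is lowest in the sg2 libraries and SEMA7A in the sg1 libraries.

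The library sg2-1 was the highest of the 3 sg2 libraries for 6 of 6 genes, as it was for 42.7% of all tested genes. It was the highest of all 9 libraries for 5 of 6, against 8.97% of all tested genes. The exception was TNFSF15, highest in sg1-2 (283). The genes were chosen for a rise over NTC, so an NTC library could hardly be their highest. A high sg2-1 value also favoured the choice, and nothing is therefore read from these shares. Without sg2-1 the log2 fold changes of sg2 over NTC were 2.30 for SLAMF7, 2.27 for ZNF114, 1.85 for HKDC1, 1.59 for CDH4, 1.88 for SEMA7A and 0.63 for TNFSF15, against 2.55, 2.45, 2.17, 1.92, 1.91 and 0.86 with it. The part of that library in these levels was not tested further.

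The comparison of sg2 with sg1 was not itself used to choose the genes, and it asks whether the rise was of one size with both guides. It is still not independent of the choice. Its libraries, and its spread per gene over the 3 groups, also entered the comparisons with NTC that chose the genes. SEMA7A, ZNF114 and SLAMF7 were higher with sg2, TNFSF15 was lower with sg2, and HKDC1 and CDH4 did not pass the test. Thus 4 of 6 genes were called (limma, Benjamini-Hochberg adjusted p below 0.05 over 15965 genes), 3 higher and 1 lower. Among all tested genes 29.8% were called, 18.3% higher and 11.5% lower. That share depended on the fit: it was 62.9% without sg2-1, 0.106% to 0.958% without any other single sg1 or sg2 library, and 0.0188% with sg1 and sg2 alone in the fit. Without overlap between the groups, 3 genes were higher in sg2 (23.7% of tested genes) and 1 lower (18.2%).

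SEMA7A differed most firmly, by 0.95 ± 0.14 on the log2 scale (SE; 95% interval 0.63 to 1.26; limma adjusted p = 0.011), with 3 of 3 sg2 libraries above all sg1 libraries. For ZNF114 the difference was 0.78 ± 0.19 (0.34 to 1.21; limma adjusted p = 0.0228) and for SLAMF7 0.70 ± 0.23 (0.19 to 1.21; limma adjusted p = 0.0442). TNFSF15 was lower with sg2 by -0.79 ± 0.21 (-1.26 to -0.33; limma adjusted p = 0.0255), with 3 of 3 sg2 libraries below all sg1 libraries. The SLAMF7 call was lost with edgeR (adjusted p = 0.061), and over 19 alternatives it stood in 6, with adjusted p values from 0.0262 to 0.14. The other calls stood in 14 (SEMA7A) and 13 (ZNF114, TNFSF15) of 19, and the sign of all 4 held in all 19.

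HKDC1 and CDH4 are the pair for which no difference was detected. Their values were 0.26 ± 0.28 (95% interval -0.36 to 0.88; limma adjusted p = 0.466) and 0.12 ± 0.29 (-0.52 to 0.76; limma adjusted p = 0.751), so that a difference of the size seen for SLAMF7 lies inside both intervals. These values rest on sg2-1: without it they were -0.06 and -0.22 (adjusted p = 0.807 and 0.386). Without sg2-1, when 62.9% of all tested genes passed, the other 4 genes passed too, at 0.92 for SEMA7A (adjusted p = 0.000219), 0.59 for ZNF114 (0.00804), 0.45 for SLAMF7 (0.0428) and -1.03 for TNFSF15 (0.000157). Leaving out sg1-1, sg1-2, sg2-2 or sg2-3 ended all 4 calls (0.106% to 0.457% of all tested genes passed then), leaving out sg1-3 all but that of SEMA7A (adjusted p = 0.0487; 0.958% of all), and leaving out any NTC library that of SLAMF7 (0.0624 to 0.065). In a fit of sg1 and sg2 alone 0 of 6 passed limma, as did 0.0188% of all genes (4 at an unadjusted p below 0.05; edgeR called 3 and DESeq2 4 with all libraries).

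**Figure D3:**
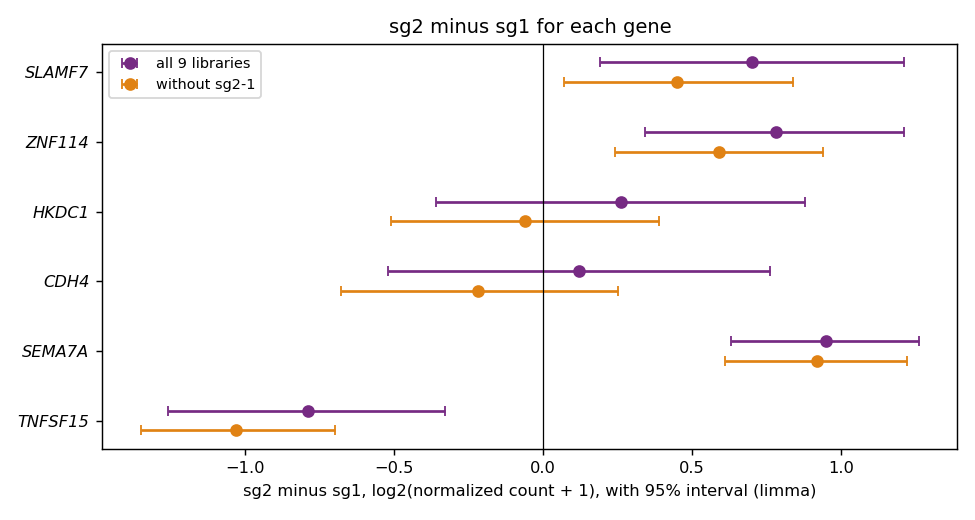
Difference sg2 minus sg1 on the log2(normalized count + 1) scale (x axis) with its 95% limma interval for each of the 6 genes, with all 9 libraries and without sg2-1. SEMA7A (0.95), ZNF114 (0.78) and SLAMF7 (0.70) lie right of 0 and TNFSF15 (-0.79) left of it in both fits, while HKDC1 and CDH4 cross 0.

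Families, receptors and partners of the 6 genes were read from lists by role, to see whether the rise was shared by their relatives. Of 101 listed genes 70 were tested, and in the mean of both guides 1 was higher and 5 were lower than in NTC (8.57% in all, against 3.98% of all tested genes, of which 1.74% higher and 2.25% lower), with a median log2 fold change of -0.10 against 0.00 for all. The one that rose was SEMA3E, and those that fell were SLC2A3, CTNNA1, SEMA6B, ITGA1 and BIRC2. The count moved with that over all genes: it was 1 without NTC-1 (0.188% of all tested genes), 2 without NTC-3 (0.451%), sg1-1 (1.46%) or sg1-2 (1.40%), 29 (8 higher and 21 lower) without sg2-1 (21.6%) and 35 (10 higher and 25 lower) without sg2-1 and sg1-3 (26.2%). Between the guides 26 were called, 5 higher and 21 lower with sg2 (37.1%, against 29.8%), with a median of -0.28 against 0.00; this count was 2 without sg1-1, sg1-2, sg2-2 or sg2-3 (0.106% to 0.457% of all tested genes), 5 without sg1-3 (0.958%), 17 without NTC-1 (18.5%) and 44 without sg2-1 (62.9%).

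The relatives of SLAMF7 were close to absent. Of 10 SLAM family receptors and adaptors 0 passed the filter on low values. CD48 and CD244, a ligand and receptor pair of the family, did not exceed 1.77 in any library, and SH2D1B (EAT-2), the adaptor through which SLAMF7 signals in natural killer cells, was at 9.32, 14.7 and 7.80 in sg1, 18.6, 3.16 and 1.31 in sg2 and 0.00, 5.06 and 4.94 in NTC. Of 15 immune cell markers 14 were in the table, and 10 of these were below 10 in every library and 0 at 0 in every library. Their summed level was 196 to 309 in sg1, 77.1 to 148 in sg2 and 142 to 190.0 in NTC, most of it CD14. PTPRC (CD45), which marks blood cells, was at 7.25, 7.35 and 108 in sg1, 17.7, 9.49 and 5.23 in sg2 and 17.5, 9.10 and 9.87 in NTC, so it was high in sg1-3 alone, where SLAMF7 lay between sg1-1 and sg1-2. For the mean of both guides 0 of the 3 markers tested passed limma (0 with unadjusted p below 0.05; edgeR and DESeq2 0).

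Among genes of glucose uptake and its first steps, 9 of 12 were tested, with a median of 0.02, and limma called 0 higher and 1 lower (3 in either direction with unadjusted p below 0.05; edgeR 0 and 1, DESeq2 2 and 1). HK1, the ubiquitous hexokinase beside HKDC1, was at 5501, 6306 and 5630.2 in sg1, 5812, 5478 and 5610.4 in sg2 and 5196, 5299 and 4895 in NTC (log2 fold change 0.16, limma adjusted p = 0.373). HK2, the inducible form, had 0.16 too (adjusted p = 0.445), and HK3 did not exceed 1.77 in any library. SLC2A3 (GLUT3), a glucose transporter, fell by 0.53 on the log2 scale (limma adjusted p = 0.0213; adjusted p from 4.16e-06 to 0.152 over 18 alternatives). Between the guides PGM2, a phosphopentomutase, was higher with sg2 (1606, 2277 and 2401 in sg2, against 972, 1051 and 941 in sg1), by 1.06 (limma adjusted p = 0.0112).

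Of 16 cadherins and catenins, the relatives and partners of CDH4, 9 were tested, with a median of -0.36. Of these limma called 0 higher (6 in either direction with unadjusted p below 0.05; edgeR and DESeq2 0) and 1 lower, CTNNA1 (alpha-catenin), which links cadherins to actin and fell by 0.47 (limma adjusted p = 0.0464; 2.41e-05 to 0.344 over 18 alternatives). CDH1 (E-cadherin), which marks epithelial cells, was at 19.7, 18.8 and 12.3 in sg1, 17.7, 17.9 and 13.1 in sg2 and 11.7, 10.1 and 4.94 in NTC and did not pass (0.88, adjusted p = 0.164). CDH2 (N-cadherin) was at 16.6, 12.3 and 4243 in sg1, 21.2, 17.9 and 180.3 in sg2 and 8.17, 11.1 and 7.40 in NTC. Its change of 2.73 in the mean of both guides (limma adjusted p = 0.371) thus rests largely on sg1-3, and sg2-3 was high too. Without sg1-3, but with sg2-3 still in the fit, the change was 1.38 (limma adjusted p = 0.31). With sg2 CDH11 (-1.24, adjusted p = 0.0235), JUP, which is plakoglobin (-1.22, 0.0112), and CDH3, P-cadherin (-1.24, 0.0442), were lower than with sg1.

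Other semaphorins gave both directions: of 15 tested of 19, 1 rose and 1 fell, with a median of 0.05. SEMA3E, a secreted semaphorin, was at 29.0, 32.7 and 33.1 in sg1, 76.0, 63.2 and 37.9 in sg2 and 5.83, 11.1 and 4.94 in NTC, without overlap, and rose by 2.46 (limma adjusted p = 0.00545; 0.059 without NTC-1). SEMA6B fell by 0.59 (adjusted p = 0.0465; 0.00171 to 0.21 over 18 alternatives). Among the receptors, 13 of 13 tested with a median of -0.29, ITGA1 fell. This integrin subunit, whose complex with ITGB1 binds SEMA7A, was at 5826, 6424 and 4990.3 in sg1, 1896, 1196 and 1183 in sg2 and 9633, 6938 and 8116 in NTC. Its change was -1.53 (limma adjusted p = 0.00407) and passed in 18 of 18 alternatives. ITGB1 (-0.29, limma adjusted p = 0.377) and PLXNC1, the plexin that reads SEMA7A (0.13, limma adjusted p = 0.883), did not pass. PLXNC1 was at 505 in sg1-3 and at 116 to 185 in the other libraries.

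Between the guides, 5 of 15 semaphorins and 9 of 13 receptors were lower with sg2, and 0 were called higher, against 11.5% lower and 18.3% higher among all tested genes. Their medians were -0.41 and -0.96; edgeR called 4 and 6 lower, and DESeq2 6 and 10, and both called 0 higher (6 and 11 in either direction with unadjusted p below 0.05 in limma). SEMA4B had 994, 775 and 776 in sg2, against 1807, 2191 and 1794 in sg1 (-1.19, limma adjusted p = 0.00529), and ITGA1 differed by -2.04 (adjusted p = 0.00355); both passed in 18 of 19 alternatives. PLXND1, a plexin of blood vessels, had 1391, 1029 and 986 in sg2, against 2885, 3187 and 2326 in sg1 (-1.31, adjusted p = 0.0106). PLXNB1 (-2.35, adjusted p = 0.0179) was at 877 in sg1-3, against 231 and 274 in the other sg1 libraries, and did not pass without sg1-3 (-1.75, adjusted p = 0.0556).

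TNF family ligands other than TNFSF15 did not pass the test in the mean of both guides: of 7 tested (14 of 17 in the table) limma called 0 (1 with unadjusted p below 0.05; edgeR and DESeq2 0), with a median of -0.06. TNFRSF25, the signalling receptor of TNFSF15, was at 43.5, 39.2 and 72.1 in sg1, 27.4, 2.11 and 6.53 in sg2 and 21.0, 22.3 and 9.87 in NTC. It was lower with sg2 than with sg1, as TNFSF15 was, by -2.54 (limma adjusted p = 0.0277; 0.000168 to 0.104 over 18 alternatives), and did not pass against NTC (0.25, adjusted p = 0.847). FADD, a death domain adaptor, differed the other way (1.07, adjusted p = 0.0218), with 231, 426 and 494 in sg2, against 192, 158 and 172 in sg1. Of the 7 receptors and adaptors tested, with a median of -0.15, 1 fell in the mean of both guides, BIRC2 (cIAP1), a ubiquitin ligase of TNF signalling (-0.51, adjusted p = 0.032; 0.000102 to 0.204 over 18 alternatives). Between the guides TNFSF18 was higher with sg2 (1.20, adjusted p = 0.0308) and TNFSF10 (TRAIL) lower (-0.88, adjusted p = 0.0222).

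For ZNF114 the cofactors of KRAB zinc finger proteins were read. For the mean of both guides 0 of 10 tested passed limma (2 with unadjusted p below 0.05; edgeR 0 and DESeq2 1), with a median of -0.03. TRIM28, the corepressor that KRAB domains bind, was at 5869, 6199 and 6162 in sg1, 7094, 6577 and 6362 in sg2 and 6342, 6314 and 6422 in NTC (0.00, adjusted p = 0.994). Between the guides CBX3, a heterochromatin protein, was higher with sg2 (0.95, adjusted p = 0.0286), with 3869, 8232 and 8745 in sg2, against 3539, 3441 and 3196 in sg1.

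**Figure D4:**
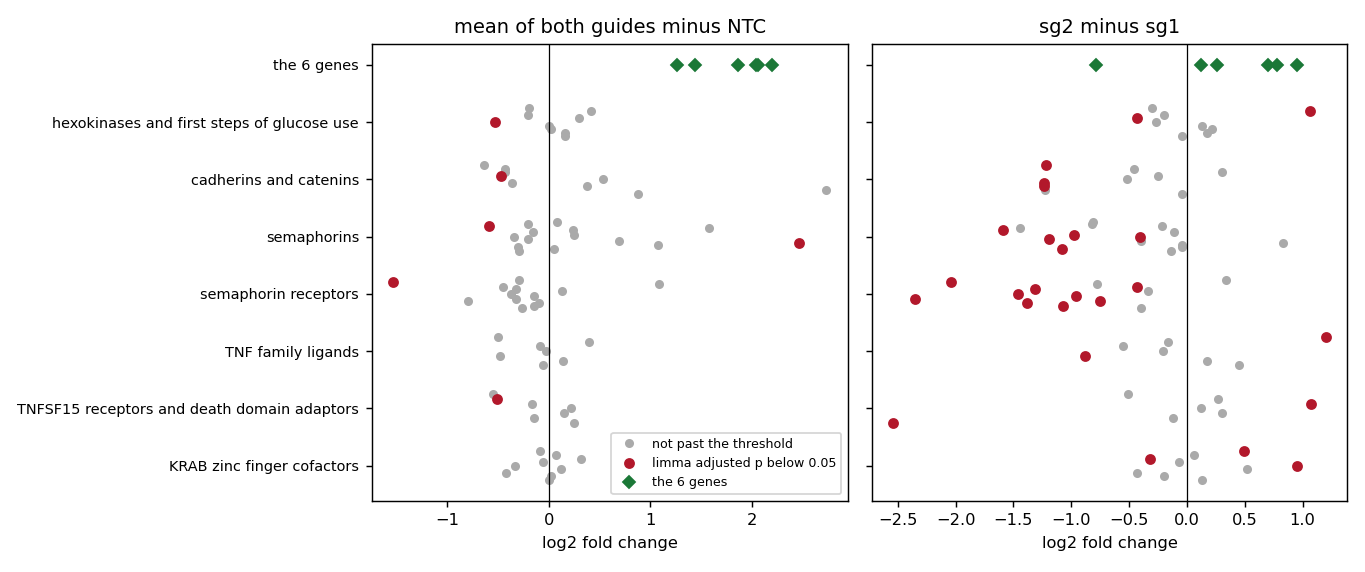
Log2 fold changes (x axis) of the 6 genes (diamonds) and of tested genes of 7 lists of relatives and partners (points, spread vertically only for legibility), for the mean of both guides minus NTC and for sg2 minus sg1; red points have a limma adjusted p below 0.05. In the left panel ITGA1 (-1.53) and SEMA3E (2.46) are the red points farthest from 0; in the right panel the receptors of semaphorins lie mostly left of 0.

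The genes whose pattern over the 9 libraries was most like that of each member were found among 9632 protein-coding genes by Pearson correlation of log2(normalized count + 1). The libraries share groups, so these values describe likeness only. ZNF114 and WWC1, a Hippo pathway protein, were alike at 0.995, and WWC1 (0.983) was also among the closest to SLAMF7, with CRISPLD2 (0.986) and MTUS1 (0.983). HKDC1 and CDH4 had the same pair among their closest, TBC1D2 (0.987 and 0.972) and GFOD1 (0.981 and 0.976); GFOD1 was at 107, 105 and 124 in sg1, 222, 120.2 and 120.2 in sg2 and 43.2, 49.6 and 51.8 in NTC, with the high value in sg2-1. SEMA7A was closest to PFKFB2 (0.987), NOP2 (0.984) and TGM2 (0.983). TNFSF15 was closest to SLC29A2, a nucleoside transporter (0.979), at 296, 331 and 274 in sg1, 182, 113 and 125 in sg2 and 94.5, 89.0 and 82.7 in NTC. The other genes named by this rule were PUS1 (0.985) and GOSR2 (0.982) for ZNF114, HMOX1 (0.979) for HKDC1, DOCK10 (0.968) for CDH4, and CLCN6 (0.963) and PITPNM3 (0.960) for TNFSF15. Of these 15 genes 13 were, like the members, highest in sg2-1 among the sg2 libraries, against 42.7% of all tested genes. They were picked for their likeness to the members over the same libraries, so nothing is read from this count.

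The nearest tested protein-coding genes on either side of each member were read too, a comparison added after the values were seen. They lay from 2.4 kb (HK1, from HKDC1) to 1347.8 kb (PAPPA, from TNFSF15) away, so not all are close neighbours. Of these 24 genes, 4 for each member, 0 passed limma for the mean of both guides, against 3.98% of all tested genes. In limma 5 had an unadjusted p below 0.05, and edgeR called 0 and DESeq2 2. Log2 fold changes ran from -0.69 (TSTD1, 282.8 kb from SLAMF7) to 1.10 (ARID3B, 107.3 kb from SEMA7A), with a median of -0.12. These 2 are named for their values.

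The m6A summits, single positions with a -log10 score given by the authors' peak caller, come from 1 list per condition, 5923 in KD and 8377 in NTC, so no difference can be tested, and the KD cells are not the sg1 or sg2 libraries. Of the 6 genes 5 had a summit in KD and 3 in NTC, and HKDC1 had none. Among 12204 tested protein-coding genes 29.9% had a KD summit and 38.4% an NTC summit. Among the 4036 with a mean level in the range of the members (77.4 to 549.4) these shares were 35.3% and 45.1%. That mean is over all 9 RNA-seq libraries and so includes the rise that chose the genes. In NTC alone HKDC1 (23.8), CDH4 (29.4), SLAMF7 (44.7) and ZNF114 (74.1) lay below this range. The shares at similar levels are therefore not matched to the members' levels in NTC.

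SLAMF7 and TNFSF15 had a summit in KD only, which holds for 3.12% of tested protein-coding genes (3.87% at similar levels). That of SLAMF7 was at position 160753913 of chromosome 1 with a score of 6.52, 908 bases inside the higher end of the gene span, and the nearest NTC summit was 285868 bases away. That of TNFSF15 was at 114789155 of chromosome 9 with a score of 6.26, 4520 bases from the 3′ end of the span, with the nearest NTC summit 288989 bases away. Both transcripts were rarer in the NTC RNA-seq libraries than in the knockout libraries (44.7 and 79.3 on average for SLAMF7 and TNFSF15 in NTC), the MeRIP-seq depth is unknown, and the part of either in these summits was not tested.

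The other 3 genes with summits had them in both lists, as 26.8% of tested protein-coding genes did (31.4% at similar levels). ZNF114 had 1 KD summit (48286928 of chromosome 19, score 3.26) and 2 NTC summits, at 48286997 (score 5.45), 69 bases away, and at 48286165 (score 7.71), which had no KD summit within 100 bases. CDH4 had 3 summits in each list near its 3′ end: in KD at 61936976, 61937899 and 61938250 of chromosome 20 (scores 2.56, 8.75 and 4.90), in NTC at 61937012, 61937898 and 61938248 (scores 1.52, 5.44 and 5.24). These lay 36, 1 and 2 bases apart. SEMA7A had 1 summit in each, at 74410433 in KD (score 9.63) and 74410444 of chromosome 15 in NTC (score 8.61), 11 bases apart and 1144 and 1155 bases from the 3′ end. Thus 5 of 6 NTC summits had a KD summit within 100 bases, against 47.0% of all 8377 NTC summits, and 5 of 7 KD summits had an NTC summit, against 66.5% of 5923. Exons were not used here, so a summit is placed by its distance from the end of the gene span and not as exonic or intronic.

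**Figure D5:**
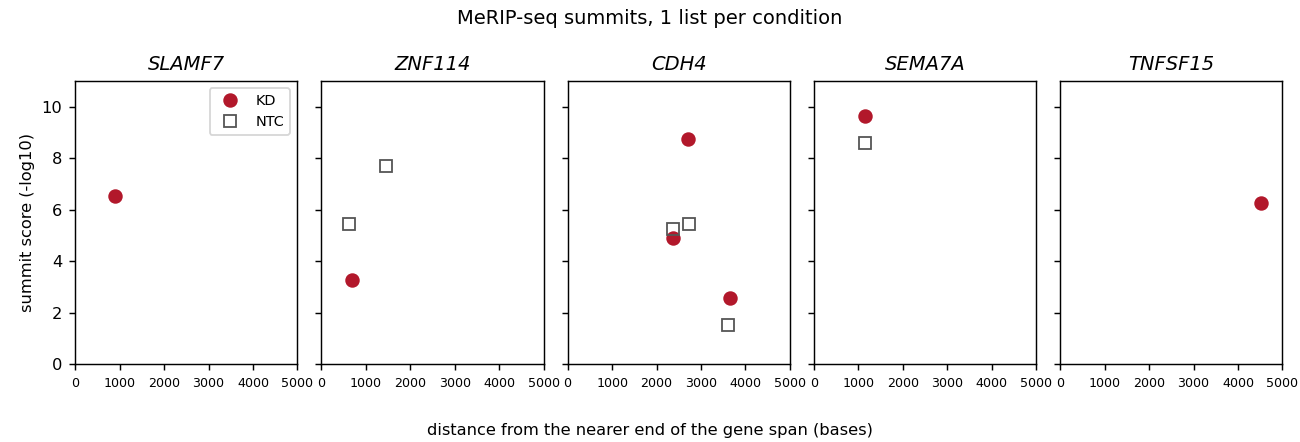
Score (-log10, y axis) of each m6A summit in the 5 genes that have any, by its distance in bases from the nearer end of the gene span (x axis), for the KD list (filled circles) and the NTC list (open squares). CDH4 and SEMA7A have paired summits in both lists, whereas SLAMF7 and TNFSF15 have a KD summit only.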

How the data were processed

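Groups and library numbers were taken from the sample titles, and 0 columns of the expression table were left without a sample. The authors deposited RNA-seq values that are a normalized signal (read counts per gene over 1 factor per library, rounded), as the values themselves show: 100.0% of values above 0 were whole multiples of a step per library within 0.1 read. Reads recovered with that step gave 13975173 to 22051705 per library; NTC-2 has a step near 1, so its recovery is less certain. Per the submitters' processing notes, build hg38 and the tools STAR, HTSeq, DESeq2, MACS2, cutadapt and FastQC 0.11.8 were used; the strand setting is not stated there. The summit lists deposited by the authors hold a -log10 score per position.

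The members and lists were chosen with earlier results of these data known. limma 3.58.1 (R 4.3.3, trended prior variance) was fitted to log2(normalized count + 1) of the 15965 genes with a value of at least 10 in at least 3 libraries, all 3 groups together, with Benjamini-Hochberg adjustment over these genes and a threshold of 0.05. Log2 fold changes on this scale understate the change of low genes. DESeq2 1.42.0 and edgeR 4.0.16, both on recovered reads, other filters, pseudocounts and scalings, replicate blocks and left-out libraries were alternatives. The limma fit was tested on simulated counts, for sg2 minus sg1 and for the mean of both guides minus NTC. These counts held no outlying library such as sg2-1, and the other steps were not tested in this way. Deviations from the group mean correlated at 0.156 to 0.258 between sg1 and sg2 libraries of one number, which were taken as paired from the data and not from the labels. Between NTC and knockout libraries of one number they correlated at -0.131 to 0.02, taken as no pairing. Genes named are the 6 members, VIRMA, up to 4 called genes a list and the closest relatives or receptors, and the 3 protein-coding genes most like each member (mean of at least 100). Gene positions are RefSeq's on GRCh38, without exons. Some genes of the lists are counted but not reported here by name.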

Additional observations from a re-analysis of the deposited data

Results flagged for a closer look

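The rise over NTC differed between the guides for 4 of the 6 genes, by limma's test of sg2 minus sg1 on the log2 scale. Of all tested genes 29.8% were called there. The same libraries and spread per gene entered the choice of the 6 genes, so the test is not independent of it. Their count is therefore not read against that share. The difference was 0.95 for SEMA7A, 0.78 for ZNF114 and 0.70 for SLAMF7, all higher with sg2, and -0.79 for TNFSF15, lower with sg2. With sg1 and sg2 alone in the fit, or without sg1-1, sg1-2, sg2-2 or sg2-3, limma called 0 of 6 (4 with unadjusted p below 0.05 in each of these fits; with all libraries edgeR called 3 and DESeq2 4).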

How the results depend on the processing

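The rise of the 6 genes over NTC kept its direction and stayed within 1 SD of the main value in each alternative run for it: recovered reads scaled to library totals, without sg2-1 and sg1-3 together, and without each single library. Scaling to library totals moved the median log2 ratio of all tested genes, knockout over NTC, by 0.095. Of the sg2 minus sg1 values, those of HKDC1 and CDH4 reversed without sg2-1 (-0.06 and -0.22) and without sg2-1 and sg1-3 (-0.05 and -0.20), with ranges of -0.06 to 0.47 and -0.22 to 0.31 over single libraries left out; the cause was not tested. The number of members called between the guides was 4, 0 to 4 when single libraries were left out, and 0 with only sg1 and sg2 in the fit. For related genes in the mean of both guides the count was 6, 1 to 29 when single libraries were left out, 3 with no filter on low values, 16 with DESeq2, 2 with the replicate block in all libraries and 35 without sg2-1 and sg1-3. Between the guides it was 26, 2 to 44 when single libraries were left out, 0 with only sg1 and sg2 in the fit (32 at an unadjusted p below 0.05; edgeR 23 and DESeq2 34 with all libraries) and 45 without sg2-1 and sg1-3. The replicate block in the sg1 and sg2 libraries gave 4, 8 and 28 for these counts and changed no call of the members. The block in all libraries ended that of SLAMF7 (adjusted p = 0.0634). Of NTC summits in the members, 5 of 6 had a KD summit within 100 bases, against 47.0% of all NTC summits. With the score cut set on both lists it was 2 of 5 at a score of at least 5, and 0 of 0 at a score of at least 10. The share of all NTC summits at these cuts was not calculated, so nothing about the members is read from this fall. Depth limits HKDC1 and CDH4 most, with 18 and 21 reads in their lowest libraries.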
